A study of Mus musculus with 12 samples.

Results

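Microglia are the resident macrophages of the brain, and complement is a cascade of plasma-type proteins that tags cells, debris and synapses for uptake by them. Csf1r, Cx3cr1, P2ry12 and Tmem119 mark the homeostatic state of these cells. C1qa, C1qb, C3 and C4b encode parts of the complement cascade, and B2m encodes the shared light chain of MHC class I molecules. These 9 genes were examined for peaks of antibody-enriched 5-methylcytosine (m5C), a methylated base of RNA, in the hippocampus. A peak was counted for a gene when it overlapped the mm10 span of that protein-coding gene by at least 1 base on the gene's own strand. The 9 genes stand among 21900 protein-coding genes, and 5 of the 9 carried a peak in at least 1 list, with 20 peaks out of 72319 in all.

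The samples were hippocampi of female wild-type C57BL/6 mice, young at 3 months or aged at 18 months by natural aging, with no treatment or transgene named. Each age had 3 immunoprecipitated (IP) libraries, each with an input library of RNA that had not been immunoprecipitated, and the authors called 1 peak list per IP library. Lists are named here by age and replicate number. Whether the replicates of an age came from separate animals is not stated, so p-values reflect only how far these samples spread, and that spread may be technical.

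The young lists held 8549 to 10392 peaks and the aged lists 14008 to 15189, in 22.3% to 24.8% and in 29.0% to 30.9% of protein-coding genes. No read counts came with the lists, so the depth is unknown and an absent peak shows only that none was listed. The score printed for a peak is the authors' own value. Its floor was about 50 and its median 117 to 144 per list, and it is used here to place a peak within its own list. The presence of neuronal RNA was checked on neuronal markers. All 9 of a list that included Rbfox3, Snap25 and the dentate gyrus factor Prox1 had a peak, 7 of them in every list. No marker of another brain region was set beside them, so hippocampal identity was not tested. In such bulk tissue fewer microglia and less RNA per cell cannot be told apart, and an IP peak also depends on how much of the transcript is present.

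Among the members, 1 transcript carried a strong peak in every library and the others carried weak, scattered ones or none. Cx3cr1, the receptor for the neuronal chemokine fractalkine, was enriched in all 3 young and all 3 aged lists, with best scores of 1205 to 3039. C3 was listed 3 times at 3 months and once at 18 months, and C4b in 2 lists of each age. C1qb had a single peak in 1 aged list and B2m a single peak in 1 young list. Csf1r, P2ry12, Tmem119 and C1qa had no peak in any list.

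**Figure D1:**
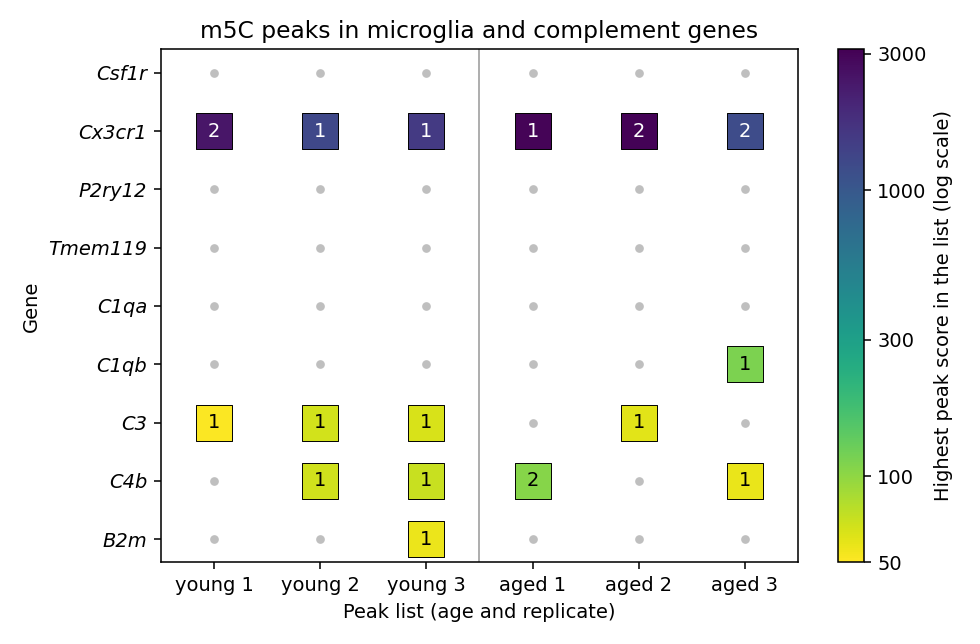
Number of peaks in each of the 9 genes (rows) in each peak list (columns, 3 young then 3 aged), with squares coloured by the highest peak score in that list on a log scale and small grey dots for no peak. Cx3cr1 is filled in all 6 columns, C3 and C4b in 4 each, and C1qb and B2m in 1 each.

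The share of members with a peak, 5 of 9, lay beside 43.5% of all protein-coding genes, and beside 41.8% of the 13316 genes whose spans were as long as those of the members (2929 to 46715 bases). Of the genes with a peak, 32.0% had one in all 6 lists, which among the members held for Cx3cr1 alone. None of the 9 was aged-only (listed at 18 months 3 times out of 3 and never at 3 months), against 4.24% of genes with a peak, and none was young-only, against 0.808%. None had more peaks in every aged than in every young list, as 11.8% of genes with a peak did, and none had fewer in every aged list, as 0.955% did. With so few members, counts of 0 lie close to these shares and show nothing particular to them.

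Members with a peak numbered 2, 3 and 4 in the young lists and 2, 2 and 3 in the aged lists. The means were 3.00 ± 1.00 (SD, n = 3) and 2.33 ± 0.577 (SD, n = 3), and the groups overlapped. Summed over the members there were 3, 3 and 4 peaks in the young and again 3, 3 and 4 in the aged lists. Over all genes the aged lists held 1.51 times as many peaks and 1.25 times as many genes with a peak. The sign of the difference in members depended on which peaks were counted. With scores of at least 100 the means were 1.00 in young and 1.67 in aged lists, and with scores at or above each list's median they were 1.00 and 1.00. With lists of equal length they were 2.00 and 1.33, and with peaks on either strand 4.00 and 2.67. Equal length was 8549 peaks, the length of young replicate 2, which therefore lost none.

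Of the 3 receptor genes among the members, Cx3cr1 was the one with peaks. Its span runs on the minus strand of chromosome 9 from 120048683 to 120068296. All 9 of its peaks fell in 1 continuous region, chr9:120048683-120052343, a stretch of 3661 bases that reaches the annotated 3' end of the gene. The number of peaks was 2, 1 and 1 in young replicates 1, 2 and 3 and 1, 2 and 2 in the aged ones. The ages did not separate by this count (means 1.33 ± 0.577 and 1.67 ± 0.577, n = 3 each, exact permutation p = 1.00, Benjamini-Hochberg adjusted p = 1.00 over 9530 genes).

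The peak nearest the 3' end was the strong one. Its score was 2444, 1273 and 1548 in young replicates 1 to 3, and 2968, 3039 and 1205 in aged replicates 1 to 3. These scores placed it between percentiles 89.6 and 95.5 of its own list. Its distance to the gene end was 0 to 61 bases, whereas at most 14.8% of the peaks of any list ended within 1000 bases of a gene end. It was also wide, at 993 to 3630 bases, and 15.9% of all peaks were at least as wide as the narrowest of them. Some immune genes described below likewise had a wide peak near the gene end in every list. Those of Lpl were 2132 to 2429 bases wide and those of Itgam 814 to 1112. Csmd1, also listed in every library, had its region 1322218 bases from the gene end.

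The lists differed in how far the enrichment reached toward the start of the gene. A segment of 932 bases, chr9:120048744-120049675, was covered in all 6 lists. Farther upstream, aged replicates 2 and 3 and young replicate 1 each had a second, weaker peak, with scores of 166, 120 and 70.6. In aged replicate 1 a single peak ran through the whole stretch. These 4 lists shared the same upstream limit at base 120052343, 15953 bases from the gene start. Young replicates 2 and 3 stopped short of it, at bases 120049675 and 120050851.

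Covered bases in Cx3cr1 were 3538, 993 and 2108 in the young and 3630, 2829 and 3504 in the aged lists. Young replicates 2 and 3 were the lowest, but young replicate 1 lay within the aged range, so the groups overlapped. The means were 2213 ± 1276 and 3321 ± 431 bases (SD, n = 3 each, exact permutation p = 0.300, adjusted p = 0.910 over all genes with a peak). A segment of 1554 bases, chr9:120050790-120052343, was covered in all 3 aged lists and in young replicate 1. No base of the region was covered at only 1 age.

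**Figure D2:**
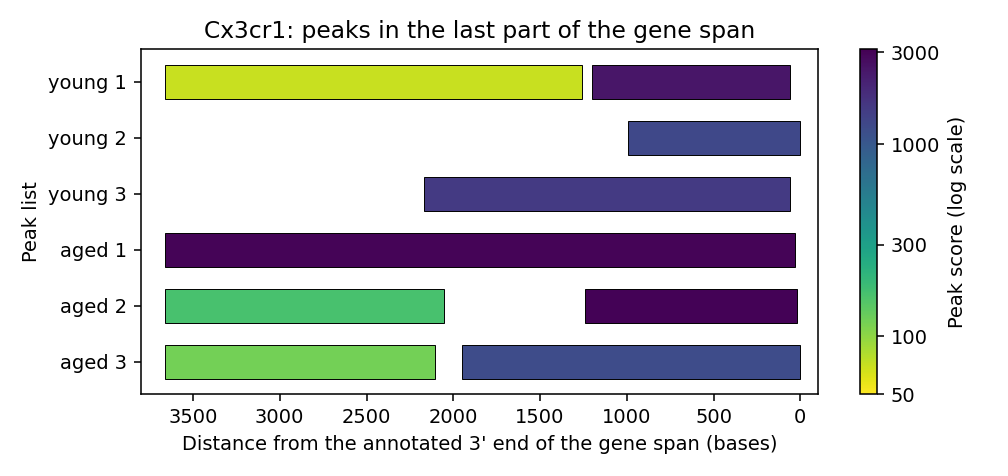
Peaks in Cx3cr1 by list (rows), drawn by their distance in bases from the annotated 3' end of the gene span (0 at the right), with colour giving the peak score on a log scale. Every list has a strong peak at the 3' end, and in young replicate 1 and all aged lists enrichment extends to 3661 bases from that end.

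The other homeostatic receptors and surface proteins had no peaks of their own. P2ry12, the purinergic receptor that guides microglial processes toward ATP and ADP, spans 46715 bases on the minus strand of chromosome 3, from 59216271 to 59262985. Inside this span the lists held 5 peaks, all on the plus strand: 1 in each young list, 2 in aged replicate 1 and none in aged replicates 2 and 3. They lay within Med12l, a subunit gene of the Mediator family whose span on the plus strand, from 59005419 to 59318446, encloses P2ry12. Ignoring strand would thus have given P2ry12 a peak in 3 young lists and 1 aged list.

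Csf1r encodes the receptor for the growth factors CSF1 and IL34, on which microglia depend for survival. Its span on chromosome 18, from 61105572 to 61131139, held no peak on either strand. The nearest was 635 bases beyond the span in aged replicate 2 (score 64.4) and belonged to the neighbouring gene Hmgxb3. Tmem119, a transmembrane protein used as a microglia marker, spans 6668 bases on chromosome 5 from 113793729 to 113800396 and was also without a peak on either strand.

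In the wider list of 16 homeostatic microglia markers, 7 (43.8%) had a peak somewhere, beside 43.5% of all protein-coding genes. Of these 7, 4 had one in every list, beside 32.0% of all genes with a peak. With so few genes, these counts show nothing particular to the list. The 4 were Cx3cr1, the transcription factor Sall1, the secreted protein Olfml3 and the integrin subunit Itgam. Olfml3 had its region at the 3' end of the gene, chr3:103735399-103736663, with scores of 73.4 to 305. Itgam, which pairs with Itgb2 to form the receptor for cleaved C3, also had its region near the gene end, 74 bases from it, chr7:128117306-128118417. Its scores were 145, 107 and 137 in the young and 591, 437 and 398 in the aged lists, and the ages did not overlap. Those of Lpl, described below, did not overlap either. Canx, also described below, had peaks that separated in both directions. Its peak nearest the gene end scored 3100 in each young list and 1527, 778 and 684 in aged replicates 1 to 3. Its peak at the gene start scored 803, 871 and 672 in the young and 1152, 1651 and 1844 in the aged lists. How many of all genes separate by score was not counted. The lists differ in length and the scale of the score is not stated, so whether these are changes in enrichment is undecided. Sall1 had scores of 90.4 to 188, but no single region of it was in every list. The only Sall1 peak of young replicate 1, with the score of 90.4, was chr8:89028266-89028818. The other 5 lists had theirs in the region chr8:89029944-89032346. The marker list had 4, 4 and 5 members with a peak in the young and 6, 5 and 5 in the aged lists (4.33 ± 0.577 and 5.33 ± 0.577, n = 3 each), so the ages touched.

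In the signalling chain around these receptors, 6 of 16 genes (37.5%) had a peak, beside 43.5% of all protein-coding genes. Only Cx3cr1 had one in all lists. The kinase Syk, which carries signals from TREM2 and its adaptor, had peaks in 3 young and 2 aged lists. Plcg2, a phospholipase acting after Syk, had them in 2 of each. The ligand gene Il34 had a peak in 2 aged and 0 young lists and Csf1 in 1 aged list. Trem2, Tyrobp, Spi1, Irf8 and the fractalkine gene Cx3cl1 had none. Young lists marked 3.00 ± 1.00 of these genes and aged lists 3.67 ± 1.15 (n = 3 each), with overlapping groups.

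Of the C1q chains, which together recognise the targets of the classical complement pathway, the data held 2 isolated peaks. C1qa, C1qc and C1qb lie side by side on chromosome 4. C1qa, from 136895916 to 136898844, had no peak on either strand. C1qb, on the minus strand from 136880126 to 136886200, had 1 peak in aged replicate 3, chr4:136880129-136880869, with a score of 113, at percentile 42.1 of that list. C1qc, which is not among the 9, had 1 peak in aged replicate 2, chr4:136889802-136890599, with a score of 80.0. Both reached to within 3 bases of the end of their gene. No list had a peak in more than 1 of the 3 genes. A single peak in 1 aged list cannot show a difference between ages or its absence.

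C3 is the protein on which all complement pathways converge. It spans 24170 bases on the minus strand of chromosome 17, from 57203967 to 57228136, and each young list had exactly 1 peak in it. In young replicates 1 and 2 and in aged replicate 2 this was the same peak, chr17:57223121-57223330, with identical ends. Its scores were 51.6, 66.7 and 60.2, close to the floor of the lists. Young replicate 3 had a different peak nearer the gene end, chr17:57210165-57210323, with a score of 64.5, and aged replicates 1 and 3 had none.

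C3 thus had 1, 1 and 1 peaks in the young and 0, 1 and 0 in the aged lists. Aged replicate 2 equals the young ones, so the groups touched (exact permutation p = 0.400, adjusted p = 1.00 over 9530 genes). With only the 8549 top-scoring peaks of each list, C3 had a peak in young replicate 2 alone. That list holds 8549 peaks and was not shortened, so its C3 peak was bound to stay. Identical ends are common here: of the regions with 1 peak in each of 3 lists, 66.3% had the same ends in all.

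C4b is the mouse complement component cleaved after C1q binds, before C3. Its span of 15764 bases lies on chromosome 17 from 34728139 to 34743902, and all of its peaks were on the minus strand. They formed 3 regions. The first, chr17:34733400-34733571, was found in young replicates 2 and 3 with scores of 67.2 and 71.2. A second, chr17:34736447-34736641, was found in aged replicates 1 and 3 with scores of 105 and 57.4. The last, chr17:34732973-34733205, was found in aged replicate 1 with a score of 74.3.

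By list, C4b had 0, 1 and 1 peaks in the young and 2, 0 and 1 in the aged lists, with overlapping groups (exact permutation p = 1.00, adjusted p = 1.00). No C4b region was shared between ages, and no region was present in all lists of an age. At equal list length the 2 young peaks were kept and the aged ones were not. The peak of young replicate 2 was bound to stay, since that list was not shortened. Without aged replicate 1 the difference in means turned from 0.333 to -0.167.

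The C4b peaks cannot be assigned to C4b alone. Mice carry a near-identical copy, C4a, which the annotation used here lists as a transcribed pseudogene on chromosome 17 from 34809092 to 34823460. Its span held 3 peaks, and each matched the place of a C4b peak. The 172-base peak of C4b recurred in C4a at chr17:34814062-34814233, in young replicate 3 and aged replicate 2. The 233-base peak of aged replicate 1 recurred at chr17:34813635-34813867 in aged replicate 3. Both pairs had equal widths and the same offset of 80662 bases.

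How reads matching both copies were placed is not stated in the labels or files. Counted over both copies, a peak was listed in 5 of the 6 libraries, all but young replicate 1. The 172-base peak then occurred at both ages, in young replicates 2 and 3 and aged replicate 2. The region on chromosome 17 from 34736447 to 34736641 had no counterpart in C4a.

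**Figure D3:**
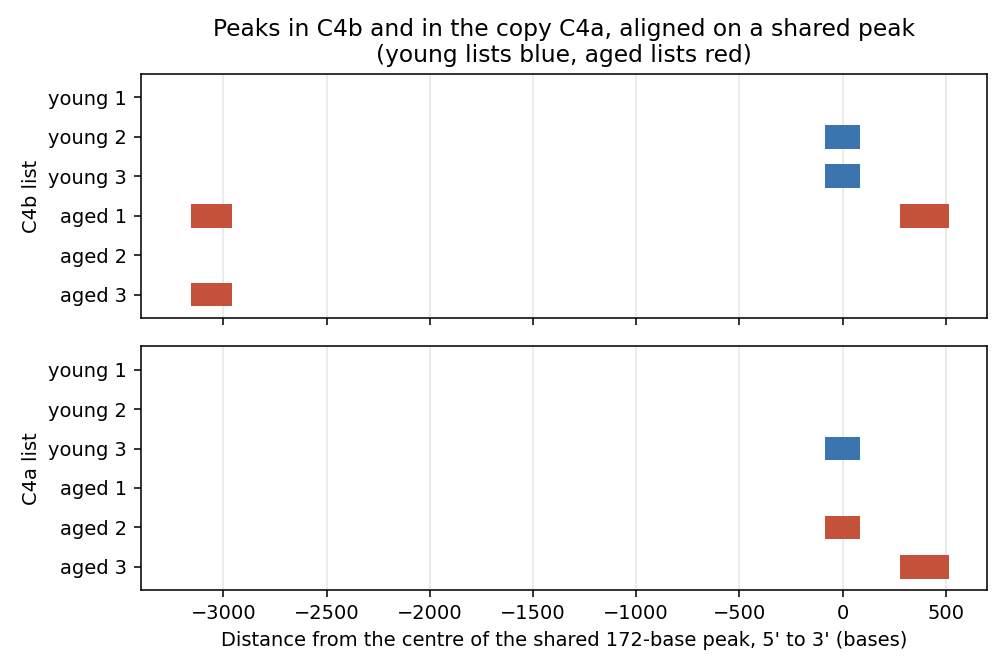
Peaks in C4b (upper panel) and in its copy C4a (lower panel) by list, drawn by their distance in bases from the centre of the 172-base peak found in both, in the direction of transcription, with young lists in blue and aged lists in red. The 172-base and 233-base peaks stand at the same places in both panels, and the farthest upstream peak is in C4b only.

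In the fixed list of 39 annotated complement components, receptors and regulators, 21 genes (53.8%) had a peak, beside 43.5% of all protein-coding genes. Of the 21, 2 had one in every list, beside 32.0% of all genes with a peak. The 2 were Itgam and Csmd1, a large transmembrane protein with complement-control domains that neurons express. Csmd1 had its region at chr8:17214756-17215453 with a score of 3100 in each list, a value at which the scale was saturated. Its relative Csmd3 was aged-only, through 3 different regions with scores of 84.2, 86.8 and 53.5, as the 1 such gene of 21, beside 4.24% of all genes with a peak. Clu, a regulator of the terminal complex that astrocytes secrete, had 1, 0 and 1 peaks in the young and 3, 3 and 3 in the aged lists. C5ar1, the receptor for the C5a fragment, had peaks in 2 young and 0 aged lists.

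Complement genes carrying a peak numbered 7, 9 and 12 in the young and 15, 9 and 10 in the aged lists (9.33 ± 2.52 and 11.3 ± 3.21, n = 3 each), so the groups overlapped. Of the 21 genes with a peak, 2 (Clu and Csmd3) had more peaks in every aged than in every young list, beside 11.8% of all genes with a peak, and none had fewer, beside 0.955%. These counts lie near the shares over all genes and show nothing particular to complement. The median difference between the numbers of aged and young lists with a peak was 0 over this list. Over all genes with a peak the median was also 0 but the mean was 0.416, so a median of 0 does not show that the list was unchanged.

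B2m, the light chain that every classical MHC class I molecule needs to reach the cell surface, spans 5396 bases on the plus strand of chromosome 2, from 122147687 to 122153082. It had 1 peak, chr2:122150873-122151151, in young replicate 3 with a score of 56.5, at percentile 9.18 of that list. No other list had a peak in it (exact permutation p = 1.00). Of the 3 heavy-chain genes in the class I list, H2-D1 had a peak in 1 young and 3 aged lists, H2-K1 in aged replicate 1 alone, and H2-T23 in none. The aged lists held 1.25 times as many genes with a peak over all genes. With only 3 heavy-chain genes, these counts are too few to show whether any change was particular to them. Class I heavy-chain genes form a family of similar copies, and their peaks may belong to another copy.

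In the class I antigen presentation list, 9 of 16 genes (56.2%) had a peak, beside 43.5% of all protein-coding genes. The chaperones Calr, Canx and Pdia3, which fold class I molecules and many other proteins of the endoplasmic reticulum, had one in every list. Calr had the saturated score of 3100 in each list. Canx also reached 3100 in each list, but through different peaks at the 2 ages. In the young lists it was the peak nearest the gene end, which scored 1527, 778 and 684 in aged replicates 1 to 3. In the aged lists it was chr11:50297274-50297394, which no young list held. The transporter genes Tap1 and Tap2 had 1 peak each, both in aged replicate 3. The list had 3, 4 and 4 members with a peak in the young and 5, 5 and 7 in the aged lists (3.67 ± 0.577 and 5.67 ± 1.15, n = 3 each). Every aged list thus lay above every young one, as was true of all genes together. No gene of the list had more peaks in every aged than in every young list.

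Of 20 genes raised in disease-associated microglia, 10 had a peak, and Lpl, a lipoprotein lipase, had one in every list. Its scores were 745, 642 and 796 in the young and 1370, 1405 and 1196 in the aged lists. Apoe, Cd63, Ctsb and Fth1, a lipid carrier, a vesicle protein, a lysosomal protease and the ferritin heavy chain, each had a peak in 2 young and 3 aged lists. Ctsd had one in 1 young and 2 aged lists and Itgax in 1 aged list. Axl and Gpnmb went the other way, each with 2 young and 1 aged lists, as did B2m with 1 young and 0 aged. Cd63 had 0, 1 and 1 peaks in the young and 2, 2 and 2 in the aged lists, and was the 1 gene of the 10 with more peaks in every aged list, beside 11.8% of all genes with a peak. Cst7, Spp1, Clec7a, Lgals3, Cd68 and Trem2 had none. Members with a peak numbered 5, 5 and 7 in the young and 9, 6 and 5 in the aged lists, with overlapping groups.

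**Figure D4:**
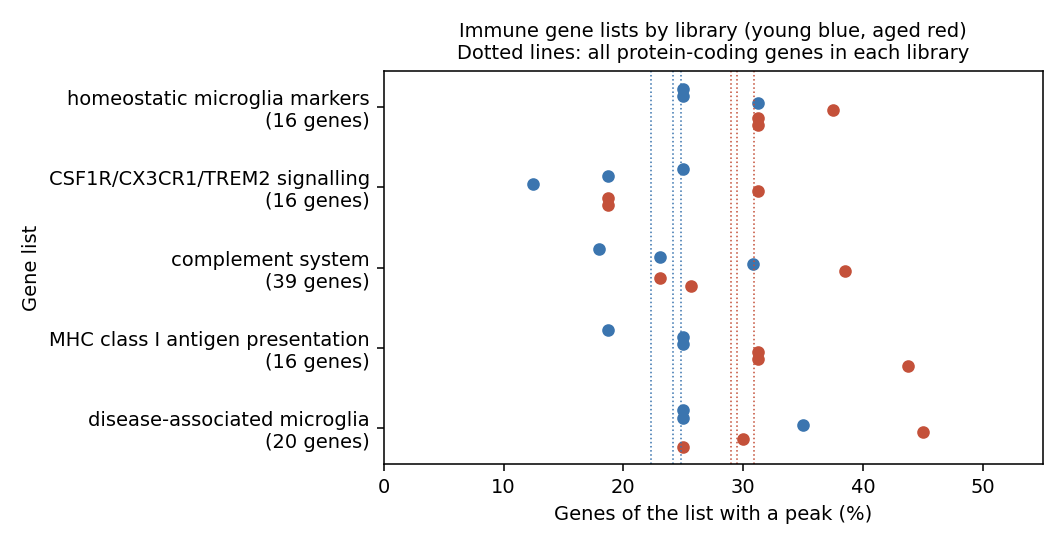
Share of genes with a peak (x axis, percent) for each of 5 fixed immune gene lists (rows), with 1 point per library in blue for young and red for aged, and dotted lines for all protein-coding genes in the same libraries. Red points lie wholly to the right of blue ones only for MHC class I antigen presentation, and the dotted lines are also ordered that way, with 22.3% to 24.8% in young and 29.0% to 30.9% in aged libraries.

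Markers of other cell types came in short lists, so their shares are only rough beside the 43.5% of all protein-coding genes with a peak. Of 8 border macrophage markers, 2 had any, Pf4 and Stab1, with 2, 0 and 0 members in the young and 0, 1 and 0 in the aged lists. The remaining ones, Mrc1, Cd163 and Lyve1 among them, were at 0. Of 7 lymphocyte markers, Cd4 had 1 peak, in aged replicate 1, and none of 4 neutrophil markers had any. Markers of other brain cells carried more: all 8 astrocyte markers had a peak, as did 6 of 8 oligodendrocyte and 3 of 5 endothelial markers. Astrocyte markers with a peak numbered 6, 4 and 7 in the young and 8, 8 and 7 in the aged lists, and oligodendrocyte markers 5, 2 and 3 against 4, 4 and 4. Every aged list lay above every young one for endothelial markers (1, 2 and 1 against 3, 3 and 3) and for neuronal markers (7, 7 and 7 against 8, 9 and 9), as for all genes together. Their part in the results on the members was not tested.

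The peaks of the members fell into 8 regions with unequal recurrence. Of these, 4 were found in 1 list only, 2 in 2 lists, 1 in 3 lists and 1, that of Cx3cr1, in all 6. Over all 24501 regions, 34.7% were found in 1 list only and 17.6% in all 6. The 11 peaks outside Cx3cr1 had scores of 51.6 to 113 and stood between percentiles 2.17 and 42.1 of their list, so each lay in the lower part of it. They were 159 to 741 bases wide. Only 2 of them reached a score of 100, in C1qb and C4b, both in aged lists.

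**Figure D5:**
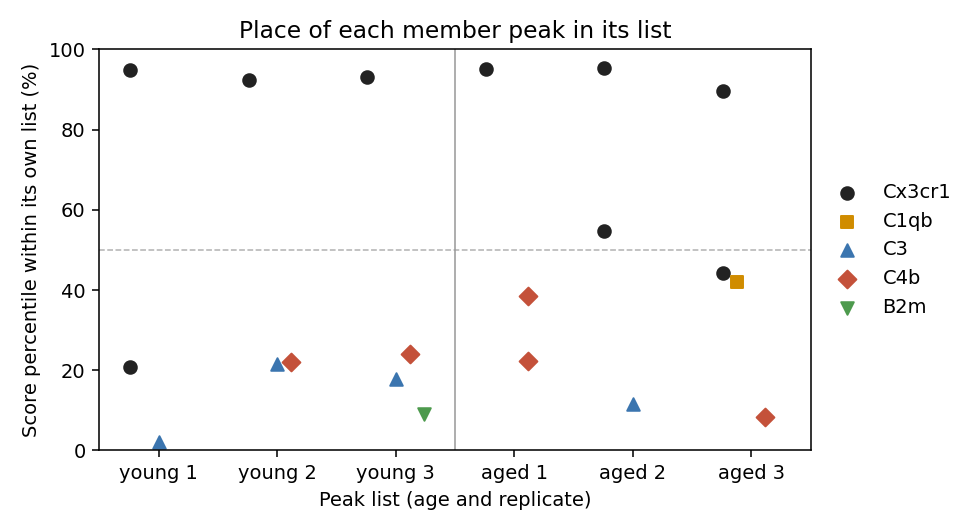
Place of each of the 20 member peaks within its own list, as the percentile of its score (y axis, percent), by list (x axis), with symbols for the genes and a dashed line at the middle of the list. The main Cx3cr1 peak lies between 89.6 and 95.5 in every list, while all peaks of C1qb, C3, C4b and B2m lie at 42.1 or below.

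Along the gene, the members' peaks were found at the 3' end or within the body and never at the start. Of the 20 peaks, 7 ended within 1000 bases of the gene end, 6 of them being the main Cx3cr1 peak of each list. The C3, C4b and B2m peaks had their midpoints between 20.3% and 74.0% of the span. Promoter windows were at hand for 5 members, and no peak touched any of them.

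Presence patterns over the 6 lists were compared with those of other immune genes. Of the 44 other genes in the 5 immune lists that had a peak, 8 matched Cx3cr1 by having one in all lists (Calr, Canx, Csmd1, Itgam, Lpl, Olfml3, Pdia3 and Sall1), a pattern that 32.0% of all genes with a peak had. Cfi, Tap1 and Tap2 matched C1qb, with a peak in aged replicate 3 alone, as 4.02% of all genes with a peak did. None matched C3, C4b or B2m, whose patterns recurred in 0.210%, 0.346% and 2.95% of all genes with a peak. So few matches among 44 genes show nothing particular to these lists.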

How the data were processed

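Per the submitters' processing notes, cutadapt 1.9.3 and HISAT2 2.0.4 were used with the genome build mm10. The authors deposited 1 peak list per IP library with its input, and the peak names carry the word MACS. The sources used here do not state the scale of the deposited score or the caller's version and settings.

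Peaks were assigned to 21900 protein-coding spans of GRCm38.p6 (mm10) with Python 3.11.15 and pandas 2.3.3. Strand came from the RefSeq promoter table for 17492 genes and, for 1831 others, from the majority strand of peaks lying in no other span, which gave the table's strand for 99.6% of 7267 genes with both. Where it was unknown, either strand counted. Of the members, 5 took their strand from the table and C4b from its peaks, while Csf1r, Tmem119 and C1qa had neither. Exons and genome sequence were not used here. Coordinates count from 1, and overlapping or touching peaks on 1 strand formed a region.

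Peak numbers and covered bases per gene were tested with the exact permutation test (two-sided), Benjamini-Hochberg adjusted over all 9530 genes with a peak, after the procedure was tested on simulated data. With 3 lists against 3 its smallest p is 0.100, so no gene could pass 0.05 and 0 genes had an unadjusted p under it. All members are described, and of the fixed lists the genes with peaks in all 6 lists, at 1 age only, or in a member's pattern. Other genes named were chosen after their values were seen. Members and lists were chosen with earlier results of these data known.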

Additional observations from a re-analysis of the deposited data

Results flagged for a closer look

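Inside the span of P2ry12, 5 peaks lay on the strand opposite to the gene, above the limit of 3 set for flagging a gene with a count of 0. They had scores of 50.8 to 121 and overlapped Med12l, which had 2, 3 and 2 peaks in the young and 4, 2 and 2 in the aged lists. The peaks on chromosome 3 from 59247362 to 59247482 recurred with identical ends in young replicates 2 and 3 and aged replicate 1.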

How the results depend on the processing

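The aged minus young difference in members with a peak was -0.667 and took the opposite sign, 0.667, with scores of at least 100. The difference in summed peaks was 0 and became 1.33 in that setting. The difference in members was 0 with scores at or above each list's median, -1.33 on either strand, -0.667 with lists of equal length and -0.333 with spans extended by 1000 bases. Lists of equal length were cut to the 8549 peaks of young replicate 2, which lost none. Leaving out 1 library gave the 2 differences ranges of -1.17 to -0.167 and -0.333 to 0.333. Genes with more peaks in every aged list numbered 1129, but 246 with lists of equal length, 602 with scores at or above each list's median, and 1289 to 1657 without 1 library. Genes with fewer numbered 91, but 250, 33, 26 with scores of at least 100, and 117 to 188. C4b turned from 0.333 to -0.667 at equal length and ranged from -0.167 (without aged replicate 1) to 0.833 with 1 library left out. The cause was not tested. Requiring 50% of the peak in the span changed no direction. Extending spans by 1000 bases gave Csf1r a peak in 1 aged list.

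Same-numbered lists had correlations of 0.019, 0.013 and 0.020 in their deviations from the age mean, each the highest for its number. Lists of unlike number had -0.021 to 0.0015. All of these are small, and they do not decide whether replicate numbers pair the samples. With a replicate block, in which each aged list is set against the young list of its number, 1524 genes had more peaks in the aged list of every pair and 110 had fewer. The mean difference in members, -0.667, cannot change under it. Without read counts, the depth behind an absent peak is unknown.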
